A study of Homo sapiens with 6 samples.

Results

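Genes that oestradiol switches on through the oestrogen receptor in breast cells were followed across the knockdown of CUEDC1, a gene for a ubiquitin-binding CUE domain protein. The list holds 34 genes named as induced by oestradiol through ESR1 in breast lines, and all 34 were found by symbol among the 17758 genes of the table. Of these, 33 had enough reads to be tested. The cells were T47D, an oestrogen receptor-positive line from a human breast ductal carcinoma, and every library carried a lentiviral short hairpin RNA in a stable line. The hairpin was non-targeting in 3 libraries (shNC 1 to 3) and directed at CUEDC1 in the other 3 (shCUEDC1 1 to 3). The groups are called controls and knockdown, and their values follow in the order of replicates 1, 2 and 3. The number of different hairpins is not given, so an effect of the hairpin sequence and the loss of CUEDC1 cannot be told apart. The series calls the libraries biological replicates, but separate infections are not mentioned, and the p-values cover only the spread among these 6 libraries, which may be technical. The growth protocol names RPMI medium with fetal bovine serum, and no label names added oestradiol, an anti-oestrogen or hormone-stripped serum. The comparison is therefore between hairpins, not between hormone states.

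The oestrogen receptor alpha, encoded by ESR1, is a transcription factor that enters an active state when it binds oestradiol. It docks on palindromic oestrogen response elements or beside factors such as FOXA1 and GATA3, often in enhancers far from the gene, and recruits coactivators of the NCOA family. In luminal breast cancer its targets include growth regulators such as CCND1 and MYC, secreted peptides such as TFF1, and the progesterone receptor PGR, and several serve as clinical readouts of hormone response.

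Each library held between 18924327 and 19731609 estimated reads. CUEDC1 itself lay at 110, 109 and 93.3 CPM in the controls and at 31.4, 33.8 and 32.0 CPM after knockdown, where CPM is the read count relative to the library size after TMM scaling (edgeR cpm). It fell by 1.68 on the log2 scale (edgeR adjusted p = 9.27e-06), with a log2 change of -1.753 without shNC 3. The library shNC 3 stood apart from its own group. Over 10142 genes of at least 10 CPM, the SD of the log2 difference was 0.109 between shNC 1 and shNC 2, but 0.249 and 0.270 between each of these and shNC 3. Between shNC 1 or 2 and the knockdown libraries this SD was 0.235 to 0.251. So shNC 3 lay about as far from shNC 1 and 2 as the knockdown did. Over the oestrogen-induced genes tested, the SD was 0.167 between shNC 1 and shNC 2. From these 2 libraries it was 0.633 and 0.721 to shNC 3 and 0.576 to 0.638 to the knockdown. These values include genes below 10 CPM, so their size cannot be set against that over all genes. Results are therefore given with all 6 libraries and, beside them, without shNC 3. The p-values without shNC 3 rest on 2 controls that lie close together. Luminal markers were high in every library, with 9 of 9 tested, 0 called changed and a sum of 8541 to 10574 CPM in the controls and 10585 to 10720 CPM after knockdown, although ESR1, FOXA1 and PGR rose without shNC 3. Of 7 fibroblast markers 1, COL1A1, rose (sums of 28.7 to 34.5 CPM in the controls and 44.9 to 53.2 CPM after knockdown), while PDGFRA and PDGFRB were near 0. The call of COL1A1 was lost without shCUEDC1 2 and without shCUEDC1 3. LUM, another fibroblast marker, was at 3.85, 2.97 and 0.944 CPM in the controls and higher in every knockdown library at 7.65, 5.63 and 5.75 CPM (edgeR adjusted p = 0.0744). It rose without shNC 3 (log2 change 0.90, edgeR adjusted p = 1.43e-04). With all libraries LUM was called as higher by DESeq2 (adjusted p = 0.00554), by limma-voom and with the replicate number as a block (edgeR adjusted p = 0.0340). Basal markers summed to 33.5 to 51.6 CPM in the controls and 37.4 to 40.4 CPM after knockdown, with KRT5 and KRT14 below 1 CPM. Of these, TP63 and ACTA2 were not called with all libraries, but without shNC 3 TP63 fell by 0.45 and ACTA2 fell by 0.43 on the log2 scale (edgeR adjusted p = 2.99e-04 and 5.50e-05). Leukocyte markers summed to at most 3.65 CPM in any library, with CD3E listed at 0 in every shNC library, and endothelial markers to at most 1.07 CPM. The part of these markers in the results was not tested.

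Among the 33 oestrogen-induced genes tested, 9 rose and 2 fell in shCUEDC1, and 22 were not called (edgeR quasi-likelihood test, adjusted p below 0.05). The 9 that rose were PDZK1, TFF1, MAPT, TSKU, KDM4B, SIAH2, CXCL12, GREB1 and HSPB8, and the 2 that fell were CA12 and KCNK5. Of all 13824 genes tested, 9.96% were called, 5.19% as higher and 4.77% as lower in shCUEDC1. Among the oestrogen-induced genes 27.3% were called higher and 6.06% lower. This list and the further lists below were chosen with earlier results of these data known. Their shares beside those of all genes are therefore descriptive and not an independent test of enrichment. Their median log2 change was 0.16, and over all genes it was -0.004. The changes were mostly small: 4 of the rises exceeded 1.5-fold (PDZK1, TFF1, MAPT and TSKU) and 0 of the falls, where 1.32% of all genes rose and 1.69% fell by that much. In bulk RNA, a change in the RNA per cell and a change in the share of cells that express a gene cannot be told apart.

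All 3 shCUEDC1 libraries lay above all 3 shNC libraries for 13 of the 33 genes and below them for 4, while 16 overlapped. Over all genes tested the groups failed to overlap for 31.3%, with shCUEDC1 above for 15.7% and below for 15.6%. Without shNC 3, 18 of the 33 genes rose and 7 fell, against 14.3% and 13.8% of all genes in that fit. These included the 9 rises and 2 falls called with all libraries. Over all genes, 715 of 717 rises and 659 of 660 falls were also called in both fits, which share libraries. The median log2 change of the oestrogen-induced genes was then 0.18. Without shNC 1, shNC 2, or shCUEDC1 1, 2 or 3, in that order, 6, 8, 5, 6 and 6 of the genes rose, beside 2.71%, 3.96%, 2.08%, 1.94% and 2.16% of all genes. In the same fits 0 of the genes fell, beside 2.22%, 3.3%, 1.58%, 1.4% and 1.55% of all genes, so that few falls would be found among 33 genes at those shares.

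**Figure D1:**
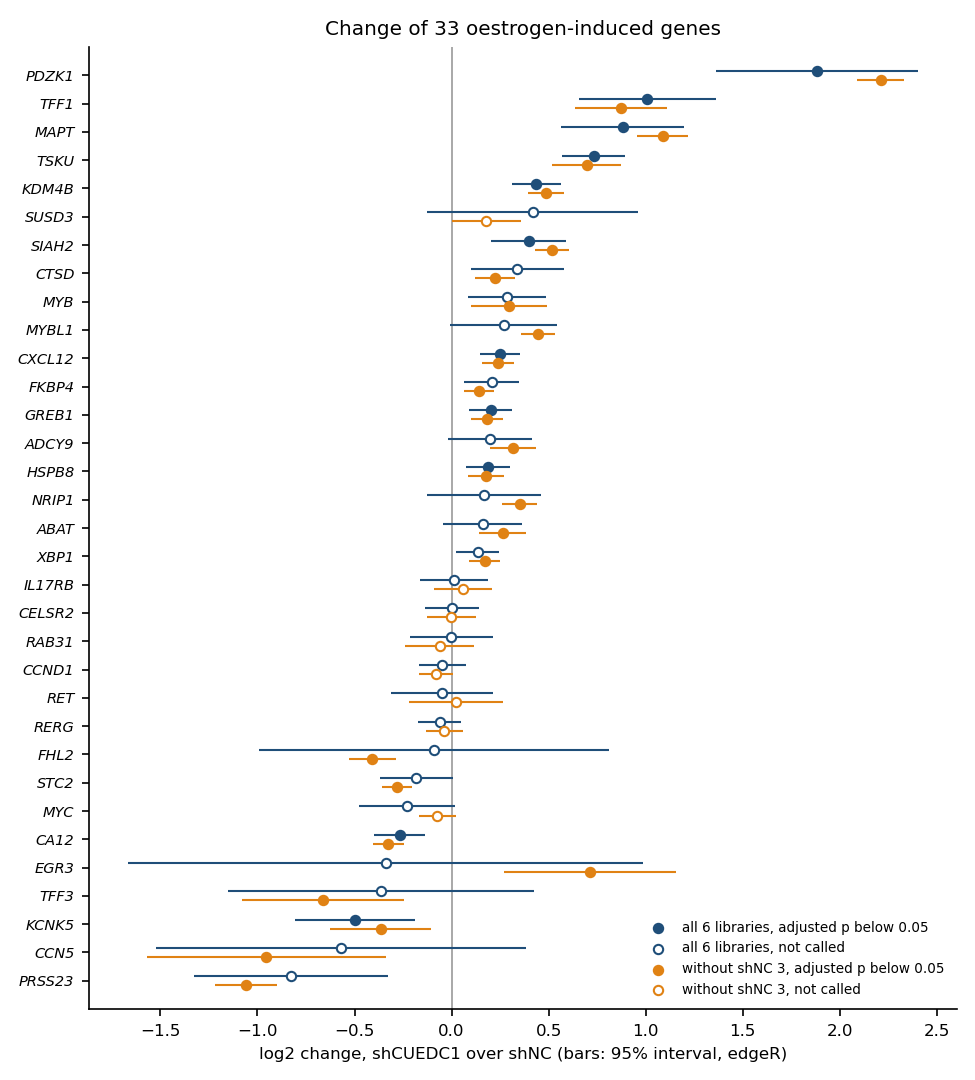
Log2 change (x axis, shCUEDC1 over shNC) of the 33 oestrogen-induced genes tested (y axis), with 95% intervals from edgeR, for all 6 libraries (blue) and without shNC 3 (orange); filled points have an adjusted p below 0.05. PDZK1 lies farthest to the right at 1.88 with all libraries, and the orange intervals of EGR3, FHL2 and PRSS23 are much narrower than the blue ones.

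Transcription and chromatin factors formed the largest group, with 9 genes, of which 2 rose and 0 fell, where 5.19% of all genes rose and 4.77% fell. KDM4B, a histone H3 lysine demethylase that works with the receptor, lay at 110, 106 and 119 CPM in the controls 1, 2 and 3 and at 156, 152 and 144 CPM after knockdown. All 3 knockdown libraries were above all controls, and KDM4B rose 1.35-fold (log2 change 0.44, 95% interval 0.31 to 0.57, edgeR adjusted p = 0.00189). Its call held in all 14 alternative fits. GREB1, a chromatin-bound cofactor of the receptor, lay at 344, 360.4 and 337 CPM in the controls and at 419, 394 and 385 CPM after knockdown. Its groups did not overlap, and GREB1 rose by a small step, 1.15-fold (log2 change 0.20, SE 0.0493, edgeR adjusted p = 0.0309). That call was lost without shNC 1 (edgeR adjusted p = 0.108) and without shCUEDC1 1, 2 or 3 (0.146, 0.112 and 0.0681), and in limma-trend at either pseudocount (adjusted p = 0.0630 and 0.0634), with a log2 change between 0.17 and 0.23 over the alternatives.

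The other 7 transcription factors and cofactors were not called with all libraries. MYB, a transcription factor of proliferating cells, was at 12.2, 13.6 and 13.1 CPM in the controls and 16.6, 15.4 and 15.2 CPM after knockdown, with no overlap (log2 difference 0.29, edgeR adjusted p = 0.0745). XBP1, which drives secretory and unfolded protein response genes, was also higher in every knockdown library. It lay at 1528, 1624 and 1685 CPM in the controls and at 1752, 1736 and 1823 CPM after knockdown (log2 difference 0.14, edgeR adjusted p = 0.123). MYC, a general growth regulator, was the 1 gene of this group with shCUEDC1 wholly below shNC. Its values were 111, 108.9 and 147 CPM in the controls and 108.8, 98.8 and 105 CPM after knockdown, so the gap between the groups was about 0.1 CPM (log2 difference -0.23, edgeR adjusted p = 0.231). Without shNC 3 the log2 difference of MYC was -0.07 (edgeR adjusted p = 0.249).

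MYBL1, a relative of MYB, and NRIP1, a corepressor of nuclear receptors, shared 1 pattern: shNC 1 and 2 were low, and shNC 3 lay with the knockdown. MYBL1 was at 104, 104 and 144 CPM in the controls and 139.6, 140.2 and 144 CPM after knockdown. NRIP1 was at 139, 143 and 197 CPM in the controls and 188, 178 and 172 CPM after knockdown. With all libraries their log2 differences were 0.27 and 0.17 (edgeR adjusted p = 0.211 and 0.469). Both were called as higher only in the fit without shNC 3, among the 14 alternatives, with log2 changes of 0.45 and 0.35 (edgeR adjusted p = 1.28e-09 and 1.86e-07). XBP1 and MYB were called there too, with 0.17 (edgeR adjusted p = 0.00112) and 0.30 (edgeR adjusted p = 0.0193).

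Of the growth regulators, SIAH2, a RING ubiquitin ligase, rose and CCND1, cyclin D1, was not called. SIAH2 lay at 123, 131 and 159 CPM in the controls and at 178, 181 and 185 CPM after knockdown, with shNC 3 nearest to the knockdown. It rose 1.32-fold (log2 change 0.40, SE 0.0856, edgeR adjusted p = 0.0194), and 1.43-fold without shNC 3. Leaving out any other single library ended the call, with edgeR adjusted p of 0.0618 and 0.0562 without shNC 1 and 2 and 0.0759, 0.0860 and 0.0935 without shCUEDC1 1, 2 and 3. An antisense gene, SIAH2-AS1, overlaps SIAH2, and its reads may be included. CCND1 was at 181 ± 8.87 CPM in the controls and 176 ± 8.07 CPM after knockdown (SD, n = 3 each), a log2 difference of -0.05 with a 95% interval from -0.17 to 0.08.

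Of the 8 secreted proteins 3 rose and 0 fell, where 5.19% of all genes rose and 4.77% fell. TFF1, a trefoil peptide and a classical marker of oestrogen action, lay at 7.59, 10.5 and 6.51 CPM in the controls and at 16.3, 15.5 and 17.8 CPM after knockdown. Every knockdown library was above every control, and TFF1 rose 2.01-fold (log2 change 1.01, 95% interval 0.66 to 1.36, edgeR adjusted p = 0.00427). TSKU, a small leucine-rich proteoglycan, lay at 119, 141 and 119.7 CPM in the controls and at 198, 221 and 212 CPM after knockdown. It rose 1.66-fold (log2 change 0.73, 95% interval 0.57 to 0.90, edgeR adjusted p = 4.65e-04). Both calls held in all 14 alternative fits. CXCL12, a chemokine, lay at 233, 240.4 and 232 CPM in the controls and at 291, 271 and 275 CPM after knockdown. Its rise of 1.19-fold (log2 change 0.25, SE 0.0462, edgeR adjusted p = 0.00957) was lost in 1 fit, without shCUEDC1 1 (edgeR adjusted p = 0.0634).

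CTSD and PRSS23, a lysosomal and a secreted protease, had groups that did not overlap and moved in opposite directions, without a call. CTSD lay at 1694, 1941 and 1391 CPM in the controls and at 2048, 2185 and 2123 CPM after knockdown (log2 difference 0.34, edgeR adjusted p = 0.0813). CTSD was called as higher without shNC 2 (log2 change 0.46, edgeR adjusted p = 0.0101) and without shNC 3 (0.22, edgeR adjusted p = 0.00204). With all libraries it was called by DESeq2 (adjusted p = 0.00577) and with the replicate number as a block (edgeR adjusted p = 0.0402). PRSS23 lay at 30.9, 30.4 and 16.8 CPM in the controls and at 15.2, 14.8 and 14.0 CPM after knockdown, so that shNC 3 sat close to the knockdown. The log2 difference of PRSS23 was -0.83 with all libraries (95% interval from -1.33 to -0.33; edgeR adjusted p = 0.0511). Without shNC 3 it fell by 1.06 on the log2 scale (edgeR adjusted p = 4.45e-12), and with all libraries it was called by DESeq2 (adjusted p = 4.63e-04), with the 1 CPM filter (edgeR adjusted p = 0.0466) and with the replicate number as a block (edgeR adjusted p = 0.0225). Annotated genes overlap the PRSS23 locus on both strands, among them FZD4, and the authors' use of strand is not given, so its reads may include theirs.

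TFF3 is the other trefoil gene of the list and lies 46.6 kb from TFF1 on chromosome 21 (chr21:42311667-42315651 and chr21:42362282-42366594, both on the minus strand). It lay at 6.48, 9.63 and 3.46 CPM in the controls and at 3.87, 5.32 and 6.06 CPM after knockdown, with full overlap (log2 difference -0.36, 95% interval -1.15 to 0.43, edgeR adjusted p = 0.571). Without shNC 3, TFF3 fell by 0.66 on the log2 scale (edgeR adjusted p = 0.0206), and without shNC 2 its difference was 0.03 (edgeR adjusted p = 0.962). The 95% intervals of TFF1 and TFF3 did not overlap, although the difference between the genes was not tested. STC2, a stanniocalcin hormone, was at 479, 486 and 382 CPM in the controls and 390.4, 405 and 393 CPM after knockdown (edgeR adjusted p = 0.211), and fell by 0.28 without shNC 3 (edgeR adjusted p = 5.91e-07). CCN5, a matricellular protein, had between 8.72 and 35 reads per library, with a log2 difference of -0.57 (edgeR adjusted p = 0.453). It fell by 0.95 without shNC 3 (edgeR adjusted p = 0.0169).

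**Figure D2:**
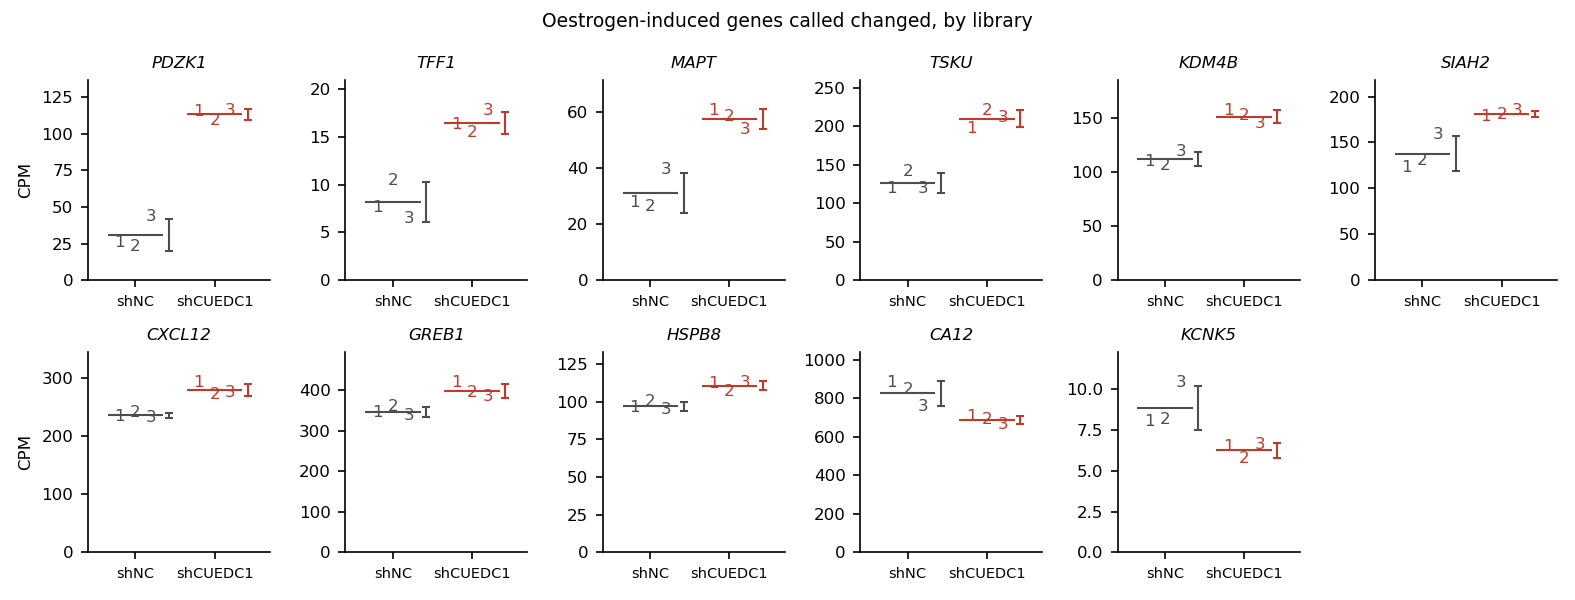
Level in CPM (y axis, from 0) of the 11 oestrogen-induced genes called changed, in shNC (grey) and shCUEDC1 (red); numerals mark the replicate, lines the mean and bars the SD of 3 libraries. In all 11 panels the red numerals lie wholly above or wholly below the grey ones, with the widest gap relative to its level for PDZK1.

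Among the 6 transport proteins and enzymes, 1 rose, 2 fell and 2 were not called, and 1 was too low to test. The shares over all genes tested were 5.19% higher and 4.77% lower. PDZK1, a PDZ scaffold that anchors membrane transporters, lay at 26.0, 23.0 and 43.3 CPM in the controls and at 115, 109 and 116 CPM after knockdown. The highest control was still far below the lowest knockdown library, and PDZK1 rose 3.69-fold (log2 change 1.88, 95% interval 1.36 to 2.40, edgeR adjusted p = 0.00376). The rise was 4.63-fold without shNC 3 (edgeR adjusted p = 9.60e-23), and all 14 alternative fits called it. The gene lies at chr1:145670852-145708148 on the minus strand (GRCh38, GENCODE). A pseudogene, PDZK1P1, is annotated, and how the authors' counting divided reads between the copies is not given, so the size of this change is uncertain on that account.

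CA12, a membrane carbonic anhydrase, was the most abundant of the called genes. It lay at 880.5, 844 and 756 CPM in the controls and at 704, 691 and 665 CPM after knockdown, with every knockdown library below every control, and fell by 0.27 on the log2 scale (SE 0.0597, edgeR adjusted p = 0.0210). The call held without shNC 3 (edgeR adjusted p = 6.91e-08) but not without any other library, with edgeR adjusted p of 0.0878 and 0.0578 without shNC 1 and 2 and 0.0755, 0.0990 and 0.106 without shCUEDC1 1, 2 and 3. KCNK5, a background potassium channel, lay at 8.0, 8.17 and 10.4 CPM in the controls and at 6.48, 5.73 and 6.58 CPM after knockdown (log2 change -0.50, edgeR adjusted p = 0.0498). It sat at the threshold: 3 of 14 alternatives kept the call, and without single libraries its edgeR adjusted p was 0.0757 and 0.0614 (shNC 1 and 2), 0.0310 (shNC 3) and 0.143, 0.201 and 0.134 (shCUEDC1 1, 2 and 3).

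ADCY9, an adenylate cyclase, and ABAT, which degrades the transmitter GABA, were not called with all libraries (log2 differences 0.20 and 0.16, edgeR adjusted p = 0.245 and 0.315). In both, shNC 3 lay above shNC 1 and 2, at 64.2 against 52.1 and 50.2 CPM for ADCY9 and at 67.1 against 57.7 and 52.7 CPM for ABAT. Without it both rose, by 0.32 (edgeR adjusted p = 1.01e-04) and 0.26 (edgeR adjusted p = 0.00118). SLC7A2, a cationic amino acid transporter, had 4.04 to 11.7 reads per library and was not tested.

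Chaperones and the cytoskeletal protein of the list were higher in every knockdown library for 3 of 3 genes, of which 2 were called. Over all genes tested, the knockdown lay wholly above the controls for 15.7%, and 5.19% were called as higher. MAPT, which encodes the microtubule-binding protein tau, lay at 27.8, 26.3 and 39.4 CPM in the controls and at 60.4, 58.3 and 53.5 CPM after knockdown. It rose 1.84-fold (log2 change 0.88, 95% interval 0.57 to 1.2, edgeR adjusted p = 0.00584), or 2.13-fold without shNC 3, and all 14 alternatives kept the call. An antisense gene, MAPT-AS1, overlaps it, and without known strand use its reads cannot be told from those of MAPT. HSPB8, a small heat shock protein, lay at 95.8, 100.4 and 94.9 CPM in the controls and at 112, 107 and 113 CPM after knockdown. Its rise was small, 1.14-fold (log2 change 0.19, edgeR adjusted p = 0.0421), and was lost without shNC 1 or 2 (edgeR adjusted p = 0.142 and 0.0542) and without shCUEDC1 1, 2 or 3 (0.166, 0.106 and 0.156), as well as in limma-trend at either pseudocount (adjusted p = 0.0599). FKBP4, a cochaperone of steroid receptors, lay at 584, 579 and 498 CPM in the controls and at 655, 641 and 620.0 CPM after knockdown (log2 difference 0.21, edgeR adjusted p = 0.0692). FKBP4 was called as higher without shNC 3 (0.14, edgeR adjusted p = 0.00555). With all libraries it was called by DESeq2 (adjusted p = 0.0285) and with no low-count filter (edgeR adjusted p = 0.0491). Its 5 annotated pseudogenes make its reads less certain.

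Receptors and surface proteins of the list gave 0 calls among 4, and the small GTPases 0 among 2, also without shNC 3. Of all genes tested, 9.96% were called, and without shNC 3 14.3% rose and 13.8% fell. With so few genes, these counts do not set either group apart. The receptor tyrosine kinase RET was at 8.81 ± 0.880 CPM in the controls and 8.50 ± 0.589 CPM after knockdown, and the interleukin receptor IL17RB at 29.7 ± 1.67 and 29.97 ± 2.13 CPM (SD, n = 3 each). CELSR2, an adhesion receptor of the cadherin family, was at 39.7 ± 1.34 and 39.8 ± 1.47 CPM, with a 95% interval of the log2 difference from -0.14 to 0.14. The growth inhibitor RERG, a Ras-like GTPase, was at 90.5 ± 2.28 and 86.9 ± 1.93 CPM and the endosomal RAB31 at 18.7 ± 2.08 and 18.7 ± 0.738 CPM. For RERG, RAB31, CELSR2, IL17RB and RET the intervals of the log2 difference lay within -0.31 and 0.21, so larger changes lie outside their intervals. SUSD3, a sushi-domain surface protein, varied more, with 25.4, 30.5 and 14.9 CPM in the controls and 31.7, 28.6 and 34.5 CPM after knockdown (log2 difference 0.42, 95% interval -0.13 to 0.96).

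Promoter windows of called genes are printed to show where half-sites of the oestrogen response element fall near their starts. RefSeq windows (GRCh38.p14) of 300 bases reached from upstream of a transcript start to shortly after it. They were at hand for 21 of the 34 genes, in 34 windows. GREB1, TFF1 and MAPT, which rose, had no window and are not covered. The full oestrogen response element, GGTCA then NNN then TGACC, which reads alike on both strands, was in 0 of these windows and in 0.057% of all 35116 windows. The half-site GGTCA, searched on both strands and contained in the full element, was in 41.2% of the windows of these genes and in 37.4% of all windows. By gene, a half-site was present for 2 of 6 that rose, 2 of 2 that fell and 8 of 13 not called. A gene was counted if any of its windows held a half-site, and genes differed in their number of windows. FHL2, ABAT, NRIP1 and PRSS23, all not called, had several windows and a half-site in only some of them. A share by gene over all windows is not given, so these counts cannot be compared between the calls. These matches describe the letters of short windows only. The windows of PDZK1, CXCL12 and TSKU, which rose, and CA12, which fell, are printed below with any half-site in capitals. They lie at chr1:145707351-145707650 (minus strand), chr10:44385048-44385347 (minus strand), chr11:76783106-76783405 (plus strand) and chr15:63381797-63382096 (minus strand), and each runs 5′ to 3′ along the gene.
PDZK1: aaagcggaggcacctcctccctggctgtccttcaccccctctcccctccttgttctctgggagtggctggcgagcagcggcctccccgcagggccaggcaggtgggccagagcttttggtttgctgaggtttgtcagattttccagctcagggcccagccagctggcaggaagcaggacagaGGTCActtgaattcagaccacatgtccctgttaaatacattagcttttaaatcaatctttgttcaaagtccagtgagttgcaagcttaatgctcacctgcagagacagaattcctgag
CXCL12: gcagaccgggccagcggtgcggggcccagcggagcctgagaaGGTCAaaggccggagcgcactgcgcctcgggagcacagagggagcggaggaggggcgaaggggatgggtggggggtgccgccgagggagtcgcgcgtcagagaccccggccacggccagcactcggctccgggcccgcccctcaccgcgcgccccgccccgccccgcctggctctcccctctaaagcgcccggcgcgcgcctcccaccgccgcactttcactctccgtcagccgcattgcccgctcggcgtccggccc
TSKU: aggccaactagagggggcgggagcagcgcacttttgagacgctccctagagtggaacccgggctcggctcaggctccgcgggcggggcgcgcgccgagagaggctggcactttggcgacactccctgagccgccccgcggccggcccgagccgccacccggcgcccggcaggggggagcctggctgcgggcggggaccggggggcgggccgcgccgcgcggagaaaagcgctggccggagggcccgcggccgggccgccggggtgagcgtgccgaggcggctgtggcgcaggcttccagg
CA12: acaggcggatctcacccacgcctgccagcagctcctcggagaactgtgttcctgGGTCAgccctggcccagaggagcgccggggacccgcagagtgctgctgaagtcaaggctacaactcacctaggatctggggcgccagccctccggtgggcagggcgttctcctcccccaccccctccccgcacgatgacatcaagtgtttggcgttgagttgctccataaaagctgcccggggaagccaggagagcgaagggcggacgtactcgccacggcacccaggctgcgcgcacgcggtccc
Relative to the transcript start of the printed window, the single half-site begins 68 bases before it in PDZK1, 208 in CXCL12 and 196 in CA12. These RefSeq starts lie inside the gene spans of GENCODE, and PDZK1 and TSKU each had another window, so the distances hold for the printed windows only. The printed TSKU window holds 0. In the printed windows a half-site was present in PDZK1 and CXCL12, which rose, and in CA12, which fell. It was absent from that of TSKU, which rose. Whether half-sites go with the direction of change was not tested.

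Much of the variation among these genes lay within the control group. In shNC 3, 7 of the 33 genes (21.2%) were over 1.5-fold from the mean of shNC 1 and 2, where 8.67% of all genes tested were. None differed by that much between shNC 1 and shNC 2 (0 of 33, against 520 of the 13824 genes), though few would be found among 33 genes at that share. Among genes of at least 10 CPM, 4 of 28 (14.3%) of the oestrogen-induced genes and 2.33% of all genes were that far. The median absolute log2 distance of shNC 3 was 0.33 for the oestrogen-induced genes and 0.16 for all genes tested. The distance went both ways: 16 of the 33 genes were higher in shNC 3 and 17 were lower, beside 6904 and 6920 of all genes tested. All 8 secreted proteins were lower and 7 of the 9 transcription factors were higher. The roles serve only to order the genes, and this split was not tested.

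EGR3, an immediate early transcription factor, was the most displaced upward. It lay at 1.87 and 1.76 CPM in the controls 1 and 2, at 7.71 CPM in the controls 3 and at 3.06, 3.07 and 2.80 CPM after knockdown. Over all 6 libraries the log2 difference was -0.34 (95% interval from -1.66 to 0.99; edgeR adjusted p = 0.767), and without shNC 3 the sign turned and EGR3 rose by 0.71 (edgeR adjusted p = 0.0130). FHL2, a LIM-domain cofactor, was displaced downward at 44.1 CPM in the controls 3, against 104 and 116 CPM in the controls 1 and 2 and 81.5, 77.2 and 88.7 CPM after knockdown. For FHL2 the log2 difference was -0.09 with all libraries (95% interval from -0.99 to 0.81; edgeR adjusted p = 0.912), and FHL2 fell by 0.41 without shNC 3 (edgeR adjusted p = 2.04e-05). For both genes the knockdown libraries lay between shNC 3 and the other 2 controls. CCN5, TFF3, SUSD3 and PRSS23 were the others far below shNC 1 and 2 in shNC 3, at 0.305, 0.442, 0.536 and 0.550 of their level, and PDZK1 was above it at 1.77 times. PDZK1 kept its call and direction all the same.

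**Figure D3:**
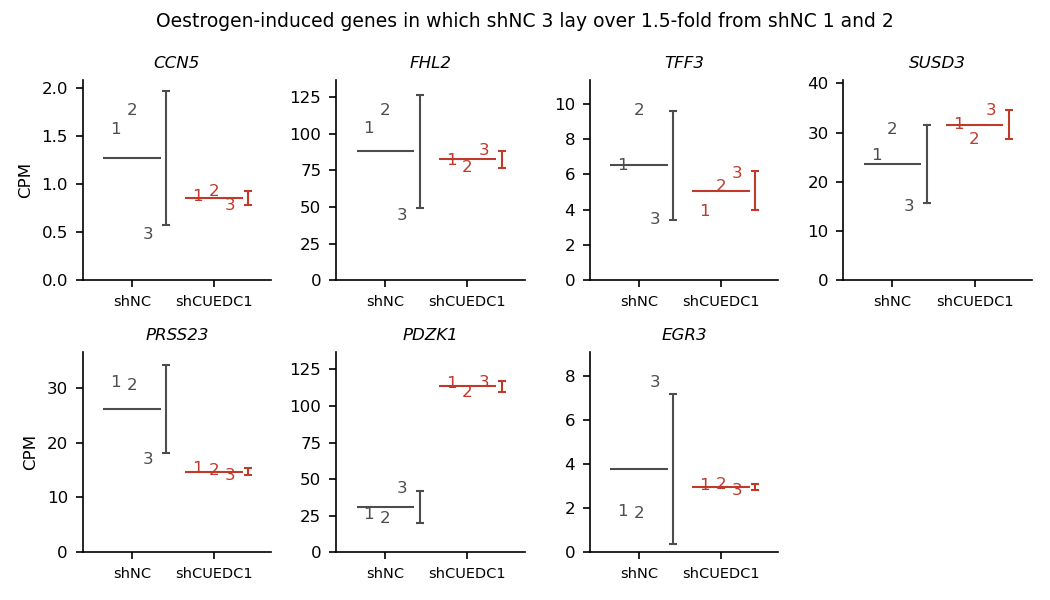
Level in CPM (y axis, from 0) of the 7 oestrogen-induced genes in which shNC 3 lay over 1.5-fold from shNC 1 and 2, chosen after their values were seen; numerals mark the replicate of shNC (grey) and shCUEDC1 (red), lines the mean and bars the SD of 3 libraries. The numeral 3 of shNC lies far from 1 and 2 in each panel, upward in PDZK1 and EGR3 and downward in the other 5.

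**Figure D4:**
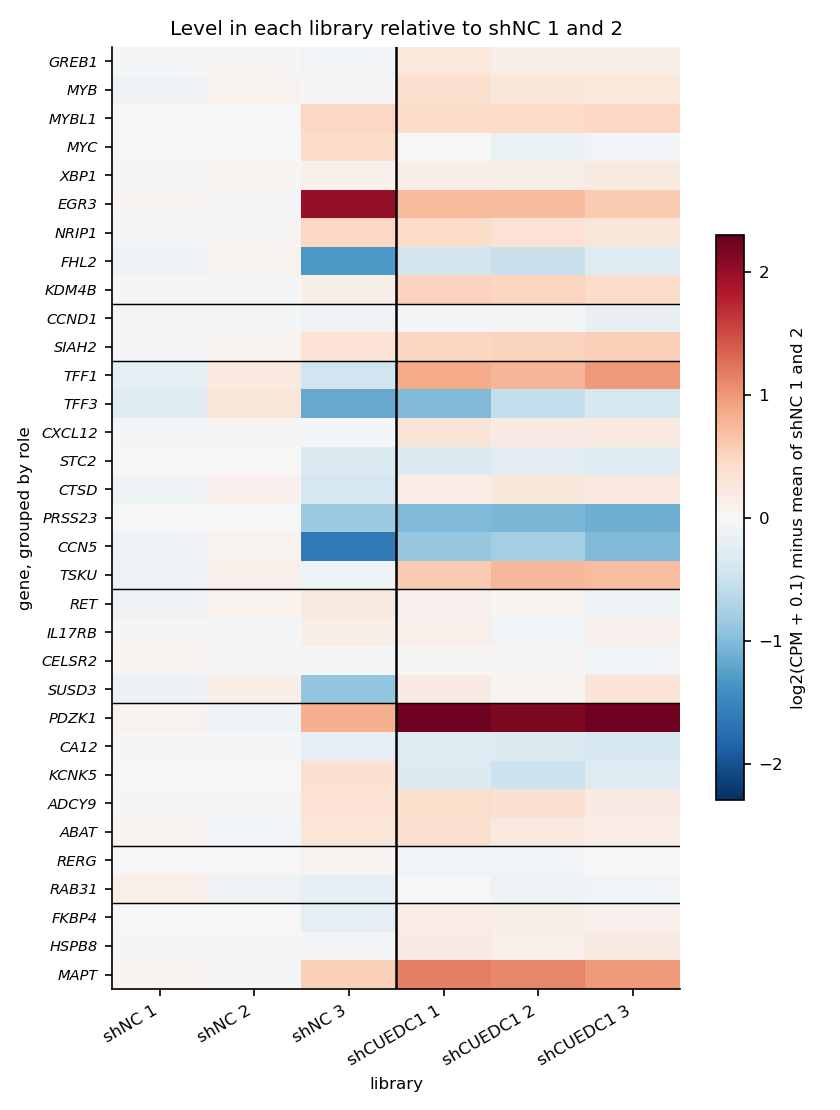
Level of the 33 genes tested (rows, grouped by role) in each library (columns), as log2(CPM + 0.1) minus the mean of shNC 1 and 2; red is higher and blue lower. The shNC 3 column holds the darkest cell for EGR3, at 7.71 CPM against 1.87 and 1.76 CPM, while PDZK1, TFF1, MAPT and TSKU are red across the 3 shCUEDC1 columns.

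Of the receptor and its cofactors, 16 were listed and 15 tested, of which 1 rose and 0 fell, or 6 rose and 2 fell without shNC 3. That is 6.67% higher and 0% lower, or 40% and 13.3% without shNC 3. Over all genes tested the shares were 5.19% and 4.77%, or 14.3% and 13.8% without shNC 3. ESR1 lay at 106, 102 and 128 CPM in the controls and at 129, 128 and 128 CPM after knockdown, so that shNC 3 sat with the knockdown (log2 difference 0.19, 95% interval 0.02 to 0.37, edgeR adjusted p = 0.165). Without shNC 3, ESR1 rose 1.24-fold (log2 change 0.30, edgeR adjusted p = 1.92e-06). The pioneer factor FOXA1 was at 397, 434 and 437 CPM in the controls and 478, 465 and 480.2 CPM after knockdown (log2 difference 0.17, edgeR adjusted p = 0.0611), and was called as higher without shNC 3 (0.20, edgeR adjusted p = 3.93e-04) and by DESeq2 (adjusted p = 0.0326). GATA3, its partner in luminal cells, differed by 0.09 (edgeR adjusted p = 0.264).

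NCOA3, a coactivator of steroid receptors, was the cofactor that rose, from 106 ± 5.75 to 126 ± 1.53 CPM (SD, n = 3 each), by 0.25 on the log2 scale (edgeR adjusted p = 0.0171). It was not called without shNC 1 (edgeR adjusted p = 0.0784) or without shCUEDC1 1, 2 or 3 (0.0794, 0.0993 and 0.0751), nor by limma-trend at either pseudocount (adjusted p = 0.0542 and 0.0544). ESR2, the beta receptor, was low at 2.27 ± 0.265 CPM in the controls and 3.11 ± 0.250 CPM after knockdown (edgeR adjusted p = 0.155), and GPER1, the membrane receptor, had 1 to 6 reads per library.

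Of 16 further genes known to be induced by oestradiol, 14 were tested, 5 rose and 1 fell, with a median log2 change of 0.12. Without shNC 3, 9 rose and 5 fell. The shares were 35.7% higher and 7.14% lower, beside 5.19% and 4.77% of all genes. Without shNC 3 they were 64.3% and 35.7%, beside 14.3% and 13.8% of all genes. Since this list was also chosen with earlier results known, these shares are no independent test of enrichment. ELOVL2, a fatty acid elongase, lay at 15.3, 10.8 and 8.81 CPM in the controls and at 36.3, 35.3 and 31.5 CPM after knockdown, a 2.95-fold rise (edgeR adjusted p = 0.00115). PKIB, an inhibitor of protein kinase A, rose 1.88-fold (edgeR adjusted p = 0.00233), and IRS1, an insulin receptor substrate, 1.60-fold (edgeR adjusted p = 0.00377). SGK3, a kinase, rose 1.73-fold and IGFBP4, which binds insulin-like growth factors, 1.21-fold, near the threshold (edgeR adjusted p = 0.0452 and 0.0265). SGK3 was not called without shNC 2 (edgeR adjusted p = 0.154) or shCUEDC1 1, 2 or 3 (0.134, 0.136 and 0.0684), nor IGFBP4 without shNC 1 (0.0953) or shCUEDC1 1, 2 or 3 (0.0693, 0.110 and 0.124). SGK3 was also lost with no low-count filter and with the replicate number as a block (edgeR adjusted p = 0.109 and 0.0835), and IGFBP4 by limma-trend (adjusted p = 0.0512 and 0.0524). The zinc transporter SLC39A6 fell 1.22-fold (edgeR adjusted p = 0.0101, and 0.0755 and 0.0685 without shCUEDC1 2 and 3).

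AREG, a ligand of the EGF receptor, lay below all controls in every knockdown library. Its values were 115, 116 and 66.2 CPM in the controls and 58.9, 60.8 and 59.8 CPM after knockdown, with shNC 3 close to the knockdown (log2 difference -0.73, edgeR adjusted p = 0.0806, DESeq2 adjusted p = 0.0482). Without shNC 3, AREG fell by 0.95 on the log2 scale, or 1.93-fold (edgeR adjusted p = 2.27e-16). PGR, the progesterone receptor and a standard readout of receptor activity, was not called. It lay at 195, 191 and 323 CPM in the controls and at 242, 220.1 and 210.1 CPM after knockdown, so shNC 3 was the highest of all libraries (log2 difference -0.08, 95% interval -0.60 to 0.44, edgeR adjusted p = 0.870). Without shNC 3 the sign of PGR turned, to a rise of 0.22 (edgeR adjusted p = 0.00137). BCL2 and GFRA1 had at most 6.05 reads in any library and were not tested.

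Of 9 genes that oestradiol represses, 8 were tested, 2 rose and 1 fell, or 4 rose and 2 fell without shNC 3. ERBB2, the HER2 receptor, rose 1.32-fold (edgeR adjusted p = 0.00405) and BMF, a pro-apoptotic BCL2-family protein, 1.501-fold (edgeR adjusted p = 0.00349). NEDD9, an adhesion scaffold, lay at 21.1, 16.5 and 12.3 CPM in the controls and at 6.63, 7.62 and 5.65 CPM after knockdown, a 2.51-fold fall (edgeR adjusted p = 0.00399). EGFR, CCNG2, BIK, YPEL3 and RELB were not called, and SNAI2 was too low to test. The calls of this list went both ways, at 25% higher and 12.5% lower, or 50% and 25% without shNC 3. Over all genes tested the shares were 5.19% and 4.77%, or 14.3% and 13.8% without shNC 3. A part of the hormone in these calls was not tested.

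**Figure D5:**
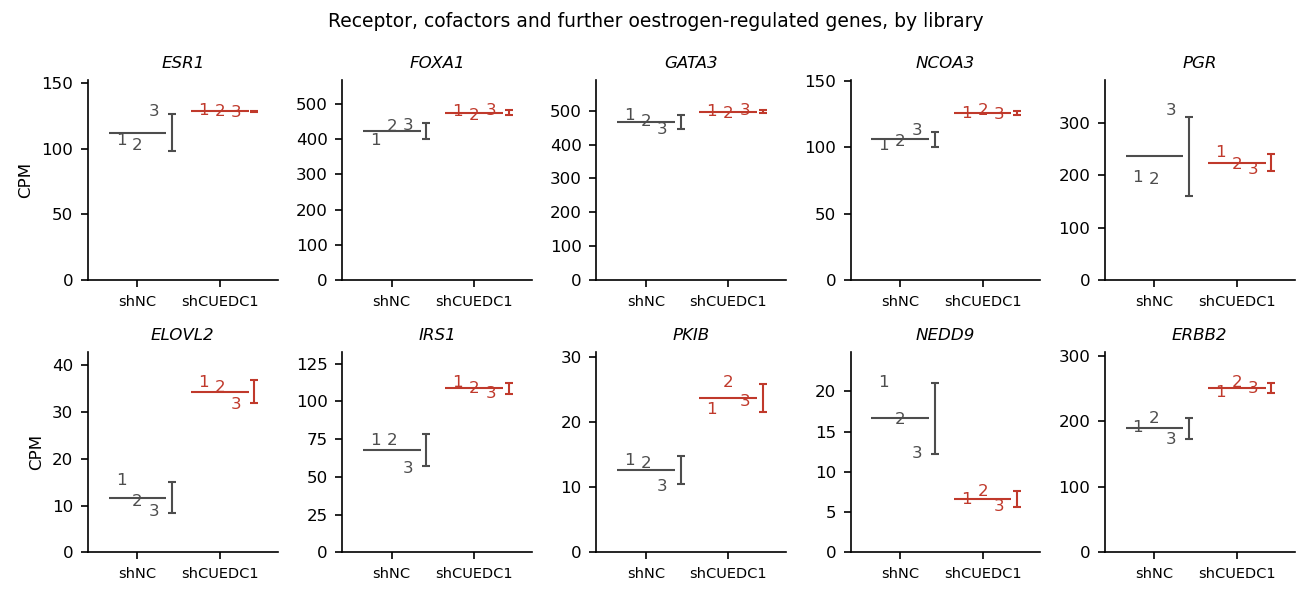
Level in CPM (y axis, from 0) of ESR1, its cofactors FOXA1, GATA3 and NCOA3, and 6 other oestrogen-regulated genes, in shNC (grey) and shCUEDC1 (red); numerals mark the replicate, lines the mean and bars the SD of 3 libraries. In ESR1 the shNC 3 numeral lies at 128 CPM beside the red ones, and in PGR at 323 CPM above them, whereas ELOVL2 and NEDD9 show groups far apart.

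Levels were compared between genes per transcript length, in the authors' FPKM. XBP1 and CTSD were the highest of the 34 in shNC, at 932 ± 51.3 and 840 ± 137 FPKM, and their order was within the spread of CTSD (SD, n = 3 each). In shCUEDC1 they were at 1001 ± 23.2 and 1049 ± 35.3 FPKM. FKBP4 (163 ± 13.9 FPKM), CA12 (138 ± 10.3 FPKM), STC2 (107 ± 13.7 FPKM) and CXCL12 (96.2 ± 2.09 FPKM) followed in shNC, where STC2 and CXCL12 differed by less than the SD of STC2. SIAH2 and GREB1 came next at 61.2 ± 8.58 and 60.3 ± 1.78 FPKM. At the lower end were RET (1.87 ± 0.151 FPKM), CCN5 (1.03 ± 0.579 FPKM), EGR3 (0.977 ± 0.886 FPKM) and SLC7A2 (0.0667 ± 0.0153 FPKM), with CCN5 and EGR3 within each other's spread. PDZK1 moved from rank 21 of the 34 in shNC, at 15.1 ± 5.51 FPKM, to 55.3 ± 1.09 FPKM in shCUEDC1, close to FHL2 at 53.1 ± 3.73 FPKM there. TFF1 was at 18.6 ± 4.66 FPKM in shNC and 37.0 ± 2.42 FPKM in shCUEDC1.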

How the data were processed

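RNA enriched on oligo(dT) beads from 6 T47D libraries, 3 per group, was reverse transcribed from random primers, per the labels' protocols. The authors deposited estimated counts per gene, not normalised and mostly fractional, and FPKM values scaled to transcript length and library size, per the file headers. Per the submitters' processing notes, the build is GRCh38.p13. The sources used here do not give the aligner, counter, annotation or strandedness. A further 12 per-library columns were not used.

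Estimated counts were rounded, filtered with filterByExpr (minimum count 10), scaled by TMM and compared with the quasi-likelihood F test (robust) of edgeR 4.0.16 in R 4.3.3. P-values were adjusted by Benjamini-Hochberg over all 13824 genes tested, and calls need an adjusted p below 0.05. The script was tested on simulated counts. The genes and lists were chosen with earlier results of these data known. Every gene of the list is accounted for. Those called, or with groups that do not overlap, are given by library, and the called genes of 3 further lists are named, as are ESR1, PGR, FOXA1, GATA3 and CUEDC1 in any case; values for MYBL1, NRIP1, STC2, ADCY9, ABAT, ESR2, GPER1, AREG, other cells' markers and the genes displaced in shNC 3 were added after they were seen. Alternatives were RLE factors, other filters, DESeq2 1.42.0, limma 3.58.1 (voom, and trend on log2 FPKM with a pseudocount of 0.5 or 1), a replicate block, and leaving out each library in turn. Locations and overlaps came from GENCODE on GRCh38, and promoters from RefSeq. Group sizes of 3 limit the precision, and counts carry no interval for sampling of cells.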

Additional observations from a re-analysis of the deposited data

How the results depend on the processing

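All 14 alternatives were chosen together with the main analysis. Of the oestrogen-induced genes, 11 were called (9 higher, 2 lower) and 5 of these, PDZK1, TFF1, MAPT, TSKU and KDM4B, were called in every alternative. With RLE size factors, limma-voom and limma-trend at either pseudocount the number that fell was 1, and with a 1 CPM filter it was 3. In limma-trend the number that rose was 7, with GREB1 and HSPB8 lost. Leaving out single libraries gave 5 to 25 called genes, with 5 to 18 higher and 0 to 7 lower, the most being without shNC 3. Over all genes it gave 468 to 3925 calls, with 272 to 1996 higher and 196 to 1929 lower, against 1377 with all libraries. The cause was not tested.

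The replicate numbers are not said to pair the libraries. Same-numbered libraries had correlations of deviations of -0.022, -0.065 and -0.032. Over every pair of a control and a knockdown library these ran from -0.077 to 0.113, so they cannot decide whether libraries were paired. With the replicate block, 10 oestrogen-induced genes (8 higher, 2 lower) and 1117 genes in all were called, and GREB1, KCNK5 and HSPB8 lost their calls (adjusted p = 0.0528, 0.0557 and 0.0854), while CTSD and PRSS23 gained one (0.0402 and 0.0225). Of the further lists, SGK3 lost its call (0.0835).

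The sign of the difference turned in some alternatives for 7 oestrogen-induced genes, and in the further lists for PGR, CARM1, EP300, MED1 and RELB. The cause was not tested. For EGR3 the log2 difference was 0.028 with limma-voom and ranged from -0.68 to 0.71 without single libraries. FHL2 gave 0.021 with limma-voom, 0.017 and 0.016 with limma-trend at pseudocounts of 0.5 and 1, and -0.41 to 0.16 without single libraries. IL17RB gave -0.0078 and -0.0075 with limma-trend and -0.024 to 0.071 without single libraries. CELSR2 gave -0.014 and -0.013 with limma-trend and -0.015 to 0.035 without single libraries. RAB31 gave 0.0045 with no filter, 0.0024 with DESeq2, 0.0023 with limma-voom, 0.0015 with the replicate block and -0.062 to 0.091 without single libraries. The ranges without single libraries were -0.66 to 0.030 for TFF3, -0.12 to 0.023 for RET and -0.21 to 0.22 for PGR. With 3 libraries a group, differences as small as those of CELSR2 and RAB31 cannot be given a direction, and below about 35 reads per library, as in CCN5, counting error is large.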
